A study of Mus musculus and Rattus norvegicus with 36 samples.

Results

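The transcripts described here encode the core and catalytic subunits of the BAF complex: Smarcc1, Smarcc2, Smarca4, Smarca2, Smarcb1, Smarce1, Smarcd1, Smarcd2 and Smarcd3. They were chosen by symbol and not by a measured value, though earlier results of these data were known. They are 9 of the 18464 gene entries in the table of acutely isolated cells and of 32623 distinct symbols over the 5 tables. All 9 were present in every table and passed the filter on low values in every comparison. RNA-seq had been made from oligodendrocyte precursor cells (OPCs), the dividing glial cells that give rise to myelinating oligodendrocytes, in 36 libraries that fall into 12 groups of 3. In 2 groups the OPCs were immunopanned directly from medial prefrontal cortex (mPFC) or hippocampus of knockout (KO) mice of genotype Pdgfralpha-CreER;Baf155-flox/flox, in which CreER, a recombinase that acts only after tamoxifen, is driven by the Pdgfralpha promoter and Baf155 is the other name of Smarcc1. In 2 further groups the cells came from the same regions of control (CTL) littermates of genotype Baf155-flox/flox without Cre, so both genotypes carry the floxed allele and an effect of Cre itself cannot be told apart from loss of the gene. The remaining 8 groups are wild-type OPCs grown for 2 days in proliferation medium. They are mouse mPFC, mouse hippocampal and rat cortical cultures treated with 200 uM GABA for 24 h, rat cortical cultures treated with 200 uM glutamate for 24 h, and for each of these its own untreated group. The sources used here give neither the age of the animals nor the schedule of Cre induction. Nor do they tie replicates to different animals or dishes, and a p-value here reflects the spread among libraries, which may be technical.

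BAF, the mammalian SWI/SNF complex, spends ATP to slide or evict nucleosomes and so opens enhancers and promoters to transcription factors. SMARCC1 (BAF155) and SMARCC2 (BAF170) are related scaffold proteins that dimerise first and hold the rest of the core, and SMARCB1 (BAF47), SMARCE1 (BAF57) and 1 of the alternative proteins SMARCD1, SMARCD2 or SMARCD3 (BAF60a, BAF60b, BAF60c) join them. The motor is either SMARCA4 (BRG1) or SMARCA2 (BRM), and in the oligodendrocyte lineage SMARCA4 is known to work with the transcription factor OLIG2 during differentiation.

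Reads were 50 bases long, and the 36 libraries held 14.8 to 22.1 M reads each. A normalised count is the number of reads of a gene divided by a size factor of its library. Both of the following features of the acute table bear on the knockout results. First, the difference between hippocampus and mPFC over 12760 genes ran in opposite directions in knockout and in control libraries as labelled. Pearson's r across these genes, which are not independent replicates, was -0.387. It was -0.496 between control libraries and untreated cultures, and 0.420 between knockout libraries and untreated cultures. The region difference of the cultures sets mouse mPFC and hippocampal tables that were normalised separately against each other. Nr2f2, a regional transcription factor gene, was higher in hippocampus by 1.51 on the log2 scale in the knockout libraries and by 3.60 in the untreated cultures, but differed by -1.30 in the libraries labelled control. The control libraries are therefore called by their labels throughout. The average of both regions, which does not depend on which control group carries which region label, is given first. The regional results are also given with the control labels exchanged. Second, KO mPFC replicate 3 and control hippocampus replicate 3 stood apart from their replicates. The squared difference between libraries of a group, over what counting alone would give, was 9.43 to 18.2 for the 4 pairs that hold one of them and 1.24 to 6.48 for the other 32 pairs. The deviations of KO mPFC replicate 3 and control hippocampus replicate 3 correlated with each other (r = 0.249). These libraries enter the knockout and control region differences with opposite signs, and their part in the r of -0.387 was not tested.

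The cells were checked against marker genes. All 10 OPC markers, among them Pdgfra, Olig2 and Sox10, were present in every group. Their normalised counts summed to 205089 to 213922 in KO mPFC, 212131 to 215373 in KO hippocampus, 247579 to 248262 in the libraries labelled control mPFC and 236579 to 243291 in those labelled control hippocampus. In the average of both regions 8 of the 10 were lower in the knockout and 2, Pdgfra and Ptprz1, were higher (adjusted p under 0.05 in limma). Of all tested genes 27.5% were lower and 26.9% higher by that test. By region label 8 OPC markers were lower and 2 higher in mPFC, beside 23.2% and 24.1% of all tested genes. In hippocampus 6 were lower and 0 higher, beside 21.0% and 21.7%. Astrocyte markers, with all 7 detected, summed to 29563 to 30623 and 23287 to 23779 in KO mPFC and KO hippocampus, against 21198 to 21524 and 21009 to 21526 in the libraries labelled control mPFC and control hippocampus. In the average of both regions 6 of the 7 were higher and 1 was lower. By region label this was also so in mPFC, but in hippocampus 2 astrocyte markers were higher and 3 lower. Of 6 genes of myelinating oligodendrocytes 3 were higher and 1 was lower in the average. They summed to 27119 to 29092 and 26339 to 26713 in KO mPFC and KO hippocampus, against 22938 to 24301 and 29109 to 30267 in the libraries labelled control mPFC and control hippocampus. Microglial, neuronal, endothelial, and mural and fibroblast markers were scarce, and the highest sum of any of these lists in an acute library was 1397, for neuronal genes in a library labelled control hippocampus. Of 8 microglial genes 2 were higher and 3 lower in the average, and 5 of 8 neuronal genes were lower. Of 4 endothelial genes 1 was higher in the average, as were 3 of 5 mural and fibroblast genes. No list had a gene at 0 in all acute libraries of a group. The part these shifts have in the results on the BAF genes was not tested, and in bulk libraries fewer cells of a type and less RNA per cell cannot be told apart.

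Since several subunits have close paralogs, the reads can be assigned to the right one only where the transcripts differ within a read length. The longest stretch of coding sequence that each pair shares without a mismatch is shown in capitals in the 50-base window around it, read 5′ to 3′ from GENCODE transcripts on GRCm38, so that the reader can see how close the paralogs come.
Smarcc1 (chromosome 9), coding bases 2692 to 2741: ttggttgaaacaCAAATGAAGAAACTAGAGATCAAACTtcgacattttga
Smarcc2 (chromosome 10), coding bases 2671 to 2720: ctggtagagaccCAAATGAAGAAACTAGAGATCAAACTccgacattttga
Smarca4 (chromosome 9), coding bases 550 to 599: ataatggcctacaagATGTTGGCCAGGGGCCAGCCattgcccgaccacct
Smarca2 (chromosome 19), coding bases 556 to 605: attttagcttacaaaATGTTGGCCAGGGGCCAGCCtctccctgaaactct
Smarcd1 (chromosome 15), coding bases 364 to 413: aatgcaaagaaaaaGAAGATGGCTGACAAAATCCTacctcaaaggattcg
Smarcd3 (chromosome 5), coding bases 289 to 338: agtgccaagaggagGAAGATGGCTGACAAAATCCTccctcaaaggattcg
The identical run was 26 bases for Smarcc1 and Smarcc2, 20 bases for Smarca4 and Smarca2, 21 bases for Smarcd1 and Smarcd3, and 18 bases for Smarcd2 against either of the other Smarcd genes. No 50-base word was shared between any of the 9 genes, so no perfectly matching read could have come from more than 1 of them. Other genes did share words. In Smarce1, 35.1% of the 50-base words of the main coding transcript also occur in pseudogenes such as Smarce1-ps1. The Smarcd3 coding transcript overlaps Chpf2, a chondroitin synthase gene on the opposite strand, over 37.0% of its bases, and Smarcd1 overlaps the opposite-strand transcripts Gm17349 and Gm34939 over 14.2%. The sources used here do not say whether the counting used strand, so reads of Smarcd3 or Smarcd1 and of their opposite-strand neighbours cannot be told apart, and reads of Smarce1 could be split with its pseudogenes. Their values are uncertain in this respect. In Smarcc1 3.26% and in Smarca4 0.0948% of words occur in another gene, and none does in Smarcc2, Smarca2, Smarcb1 or Smarcd2.

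In knockout OPCs 7 of the 9 transcripts were lower and none was higher, in the average of both regions. Called means a Benjamini-Hochberg adjusted p under 0.05 in limma, over 13985 tested genes, on log2 of the normalised count plus 1, and all differences are on that scale, given with their standard error. The background is high in this comparison: 27.5% of all tested genes were called lower, 26.9% were called higher and 54.4% were called in either direction. The 7 of 9 exceed the share of all genes called lower, with the targeted gene among the 7, and the difference between these shares was not tested. The libraries of the 2 genotypes did not overlap in 6 of the 9, Smarcc1 among them, and in 22.6% of all tested genes. The margin between these shares was not tested. The median difference of the 9 genes was -0.16, beside -0.012 over all tested genes. The plot of values by library and the plot of log2 differences show this gene by gene. Smarcc1 fell most, then Smarcd3 and Smarca2, and the motor gene Smarca4 was the one with a positive difference. Without the 2 libraries that stood apart, 7 were lower and 1, Smarca4, was higher, on a background of 62.3% called in either direction.

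**Figure D1:**
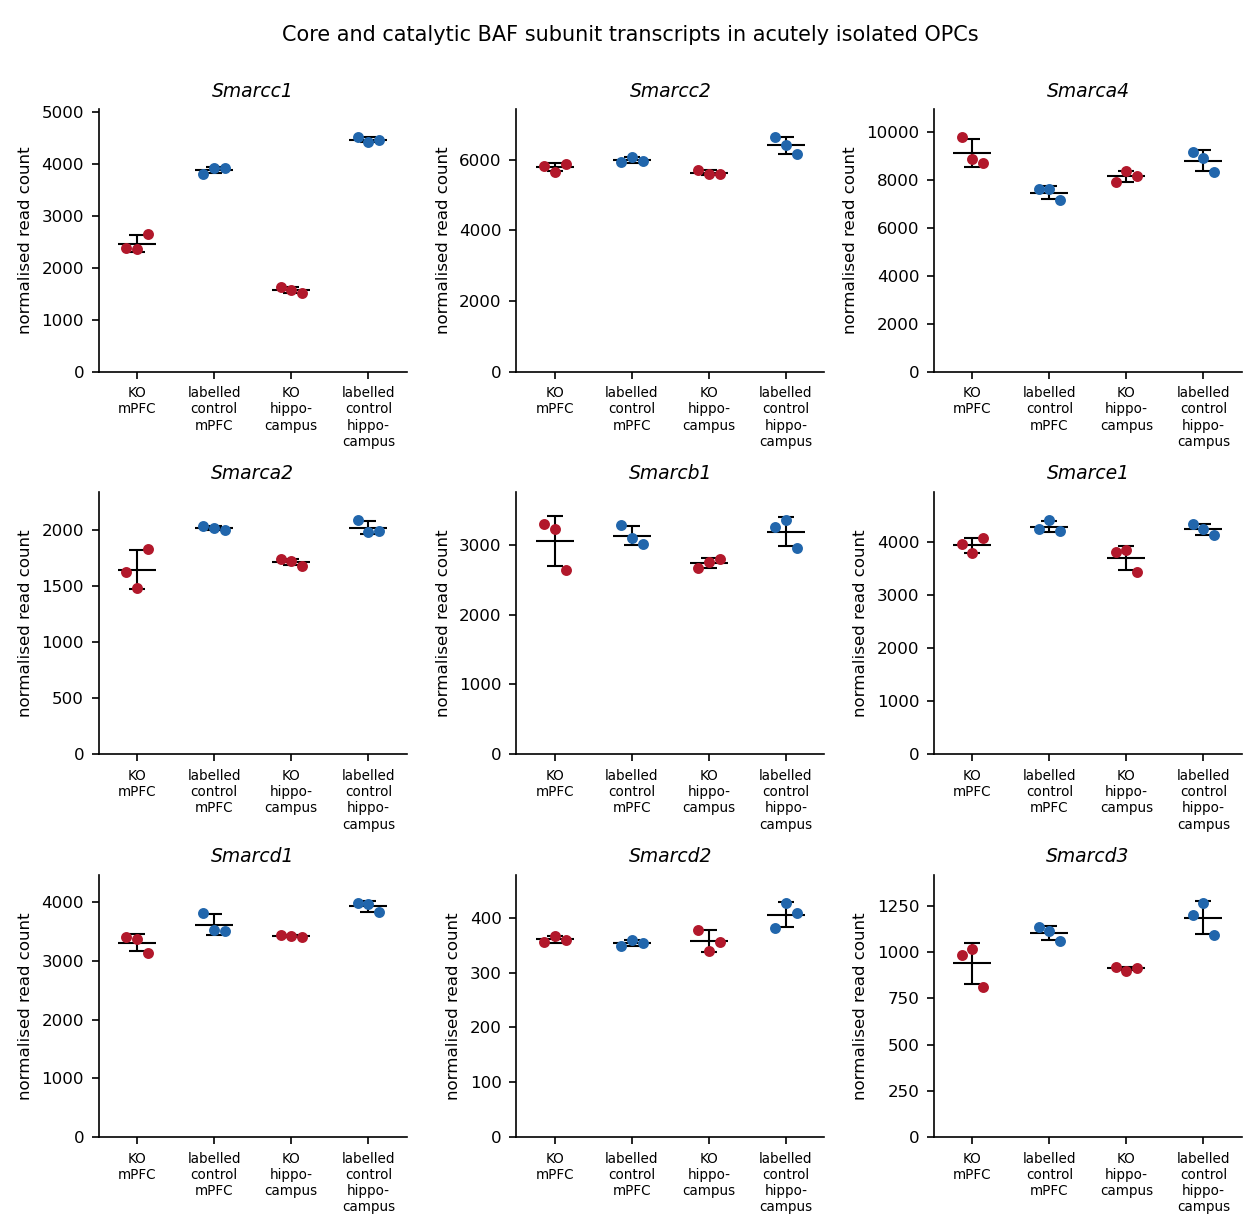
Normalised read counts (vertical axes, each from 0) of the 9 transcripts in each of the 12 acute libraries: points are libraries, horizontal marks are group means and bars are 1 SD (n = 3), with KO in red and libraries labelled control in blue. Smarcc1 lies below every control library in both knockout groups, while Smarca4 in KO mPFC lies above the libraries labelled control mPFC.

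Smarcc1, the targeted scaffold gene (ENSMUSG00000032481.17), was lower in the knockout but still present. It spans bases 110117708 to 110240178 of chromosome 9 on the plus strand, with 28 exons in its main coding transcript. It stood at 2378, 2368 and 2649 normalised counts in KO mPFC and 1631, 1569 and 1510.2 in KO hippocampus, against 3814, 3911 and 3915 in the libraries labelled control mPFC and 4514, 4419 and 4454 in those labelled control hippocampus. All 6 knockout libraries lay below all 6 control libraries, and the 3 hippocampal knockout libraries lay below the 3 from mPFC. The knockout level averaged 48.4% of the control level (-1.08 ± 0.035, adjusted p = 5.08e-12 in limma). Against the control group of the same label, KO mPFC kept 63.5% (-0.66 ± 0.049, adjusted p = 6.62e-08) and KO hippocampus kept 35.2% (-1.51 ± 0.049, adjusted p = 1.4e-11). With the control labels exchanged the differences were -0.86 in KO mPFC and -1.31 in KO hippocampus. The tables give 1 value per gene, so reads from the floxed exons and from the rest of the transcript cannot be told apart here, nor can OPCs that kept the gene be told from OPCs that lost it.

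Smarcc2, the other scaffold gene (chromosome 10, bases 128459248 to 128490482, plus strand), was also lower in the knockout. It had 5824, 5662 and 5883 counts in KO mPFC and 5713, 5607 and 5602 in KO hippocampus, against 5938, 6086 and 5954 and 6642, 6409.7 and 6171 in the libraries labelled control mPFC and control hippocampus. Every knockout library lay below every control library, by a small margin in mPFC. The average difference was -0.12 ± 0.027 (95% interval -0.18 to -0.058; limma adjusted p = 0.00236), a level of 92.2% of control.

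The alternative motor genes did not move together. Smarca2 spans bases 26605050 to 26778322 of chromosome 19 on the plus strand. It had 1626, 1484 and 1827 counts in KO mPFC and 1739, 1723 and 1681 in KO hippocampus, against 2029.9, 2016 and 1996 in the libraries labelled control mPFC and 2088, 1981 and 1992 in those labelled control hippocampus. The groups did not overlap, and the average level was 83.3% of control (-0.27 ± 0.043, adjusted p = 0.000114 in limma). Smarca4 spans bases 21616169 to 21704230 of chromosome 9 on the plus strand. It had 9777, 8857 and 8680.4 counts in KO mPFC and 7901, 8378 and 8138 in KO hippocampus, against 7610.1, 7631 and 7138 and 9177, 8897 and 8326 in the libraries labelled control mPFC and control hippocampus. The libraries of the 2 genotypes overlapped, and the average difference of 0.087 ± 0.037 missed the threshold (limma adjusted p = 0.06). It passed when the 2 libraries that stood apart were left out (0.084, adjusted p = 0.0129) and when KO mPFC replicate 3 or control hippocampus replicate 1 alone was left out (0.10, adjusted p = 0.0173 and 0.10, adjusted p = 0.0419). It also passed with quantile normalization (0.093, adjusted p = 0.0396) and with the replicate number as a block (0.087, adjusted p = 0.0329).

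Of the remaining core subunits, Smarce1 encodes an HMG-box DNA-binding protein and lies on chromosome 11 (bases 99209047 to 99231017, minus strand). It had 3962, 3789.6 and 4079 counts in KO mPFC and 3817, 3858 and 3441 in KO hippocampus, against 4255, 4421 and 4218 and 4351, 4245 and 4140.2 in the libraries labelled control mPFC and control hippocampus. The genotypes did not overlap, and the average level was 89.5% of control (-0.16 ± 0.035, adjusted p = 0.00129 in limma). The product of Smarcb1 (chromosome 10, bases 75896769 to 75921617, minus strand) contacts the nucleosome. The gene had 3301, 3227 and 2643 counts in KO mPFC and 2664, 2758 and 2790.3 in KO hippocampus, against 3282, 3102 and 3007 and 3254, 3353 and 2954 in the libraries labelled control mPFC and control hippocampus. Here the genotypes overlapped: KO mPFC replicate 3 was the lowest of all 12 libraries while the other KO mPFC libraries sat among the highest. The average difference of -0.13 ± 0.052 was at the threshold (limma adjusted p = 0.0487). The call was lost when any 1 of 9 of the 12 libraries was left out, KO mPFC replicate 3 among them (-0.078, adjusted p = 0.0736). The call was also lost with no filter (-0.13, adjusted p = 0.0656) and with a pseudocount of 0.1 (-0.13, adjusted p = 0.05). Without both libraries that stood apart Smarcb1 was called (-0.11, adjusted p = 0.00189).

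The Smarcd genes encode alternative adaptors between the core and transcription factors. Smarcd1 (chromosome 15, bases 99702129 to 99713991, plus strand) had 3401, 3379.8 and 3138 counts in KO mPFC and 3441, 3426 and 3409 in KO hippocampus, against 3822, 3519 and 3513 and 3989, 3976 and 3824 in the libraries labelled control mPFC and control hippocampus. All knockout libraries were below all control libraries, at 89.2% of control (-0.16 ± 0.033, adjusted p = 0.000677 in limma). Smarcd3 spans bases 24590818 to 24624411 of chromosome 5 on the minus strand. It had 988, 1018 and 814 counts in KO mPFC and 919, 901 and 917 in KO hippocampus, against 1135, 1116 and 1061 and 1202, 1268 and 1092 in the libraries labelled control mPFC and control hippocampus. The genotypes again did not overlap, and the average level was 80.8% of control (-0.31 ± 0.054, adjusted p = 0.000248 in limma). Chpf2, whose exons overlap it, averaged 605 ± 46.9 counts in the knockout libraries and 587 ± 73.8 in the libraries labelled control (SD, n = 6 each, 0.051 ± 0.056, adjusted p = 0.462 in limma). By region label its difference was 0.19 ± 0.080 in mPFC and -0.091 ± 0.080 in hippocampus (limma adjusted p = 0.0589 and 0.381). Those of Smarcd3 were -0.24 ± 0.077 and -0.38 ± 0.077. The part of Chpf2 reads in the Smarcd3 values was not tested. Smarcd2 (chromosome 11, bases 106263179 to 106272972, minus strand) had the lowest counts. It stood at 355, 367 and 359 counts in KO mPFC and 378, 339 and 356 in KO hippocampus, against 348, 359.7 and 353 and 381, 427 and 409 in the libraries labelled control mPFC and control hippocampus. The groups overlapped, and the difference was not called (-0.077 ± 0.047, adjusted p = 0.177 in limma; 95% interval -0.18 to 0.023).

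**Figure D2:**
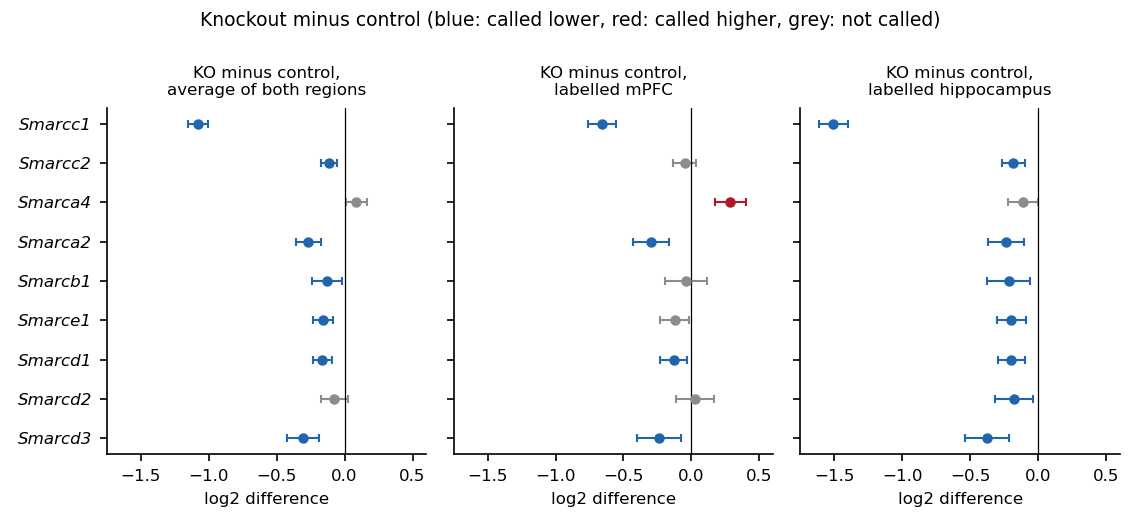
Log2 difference, KO minus control, of each transcript (horizontal axes; points with 95% intervals from limma) for the average of both regions and for each labelled region, with called differences in blue (lower) or red (higher) and others in grey. Smarcc1 lies furthest to the left in every panel, at -1.08, -0.66 and -1.51, and Smarca4 is called higher in the labelled mPFC panel alone, at 0.29.

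By region label, 5 of the 9 transcripts were called in mPFC and 8 in hippocampus, where 47.4% and 42.6% of all tested genes were called. In mPFC 4 were lower (Smarcc1, Smarca2, Smarcd1 and Smarcd3) on a background of 23.2%, and 1, Smarca4, was higher on a background of 24.1%. Smarca4 averaged 9105 ± 589 counts in KO mPFC and 7459.6 ± 279 in the libraries labelled control mPFC (SD, n = 3 each; 0.29 ± 0.053, adjusted p = 0.000436 in limma). In hippocampus 8 were lower on a background of 21.0% and Smarca4 was not called (-0.11 ± 0.053, adjusted p = 0.1). Without control hippocampus replicate 3, Smarca4 was called lower in hippocampus (-0.15, adjusted p = 0.0313 in limma), when 46.7% of all tested genes were called. With the control labels exchanged, 5 were lower in KO mPFC, with Smarcc2 gained and Smarca4 lost (0.048, adjusted p = 0.499). In KO hippocampus 5 were lower, with Smarcc2, Smarcd1 and Smarcd2 lost. The share of all tested genes called was then 38.8% in mPFC and 48.1% in hippocampus. Smarcc1, Smarca2 and Smarcd3 were lower in both regions under either assignment of the control labels. Single libraries carried some of these calls. In mPFC the call of Smarcd3 was lost without KO mPFC replicate 3, control mPFC replicate 1 or control mPFC replicate 2, and that of Smarcd1 without KO mPFC replicate 3 or control mPFC replicate 1, so that 3 calls were made without control mPFC replicate 1, when 40.2% of all tested genes were called. In hippocampus the call of Smarcb1 was lost without any 1 of 5 libraries and that of Smarcd2 without any 1 of 4, of the 6. On the groups of the contrast alone, Smarcd1 in mPFC (-0.13, adjusted p = 0.0871) and Smarcd2 in hippocampus (-0.18, adjusted p = 0.0617) were not called. Smarce1 was gained in mPFC with quantile normalization (-0.17, adjusted p = 0.0135), a pseudocount of 10 (-0.12, adjusted p = 0.0497), the block (-0.12, adjusted p = 0.044) and without KO mPFC replicate 3 (-0.15, adjusted p = 0.0201).

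The test of the difference between the 2 knockout effects, hippocampus minus mPFC, called 2 of the 9 (of all tested genes 24.4% were called, 12.6% as more negative in hippocampus). They were Smarcc1 at -0.85 ± 0.069, adjusted p = 9.5e-07, and Smarca4 at -0.40 ± 0.074, adjusted p = 0.00169 in limma. With the control labels exchanged Smarcc1 kept its call (-0.45, adjusted p = 0.000953) and Smarca4 changed sign and lost it (0.078, adjusted p = 0.524). For the other 7 genes the difference was not called, with 95% intervals between -0.41 and 0.24. Without KO mPFC replicate 3 there were 4 calls, with Smarcb1 and Smarcd3 added, while 37.9% of all tested genes were called. Without control hippocampus replicate 3 there were 3, with Smarcc2 added, and 32.7% of all tested genes were called. Without both libraries there were 6, all more negative in hippocampus, on a background of 50.3%.

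Within one genotype, the knockout libraries differed between regions in Smarcc1 alone among the 9. The background was 15.1%, with 8.14% higher and 6.97% lower. Smarcc1 averaged 1570.2 ± 60.4 counts in KO hippocampus and 2465 ± 159 in KO mPFC (SD, n = 3 each; -0.65 ± 0.049, adjusted p = 1.18e-06 in limma). No control library enters these 2 means. Without KO mPFC replicate 3 the count was 4, with Smarca4, Smarca2 and Smarcb1, and the share of all tested genes called was 35.3%. In the controls as labelled, 3 of the 9 were higher in hippocampus than in mPFC, on a background of 12.2% called higher (23.7% in either direction). They were Smarcc1 (0.20 ± 0.049, adjusted p = 0.00835), Smarca4 (0.24 ± 0.053, adjusted p = 0.00483) and Smarcd2 (0.20 ± 0.066, adjusted p = 0.0435). Exchanging the labels turns these signs round by construction. The call of Smarcd2 was lost without any 1 of 5 of the 6 control libraries, with no filter (0.20, adjusted p = 0.054), on the control groups alone (0.20, adjusted p = 0.0604) and with the replicate number as a block (0.20, adjusted p = 0.0515), which added Smarcd1 (0.12, adjusted p = 0.0446). Without control hippocampus replicate 3 the count was 4, and 26.9% of all tested genes were called.

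Levels of different genes can be compared only per length, so counts were divided by the length of the main coding transcript, 1.66 kb for Smarcb1 to 6.38 kb for Smarca4, which assumes that this transcript is the one expressed. In the libraries labelled control mPFC, Smarcb1 was highest at 1890 ± 83.9 normalised counts per kilobase (SD, n = 3), followed by Smarcc2 at 1490 ± 20.1, Smarce1 at 1470 ± 37, Smarca4 at 1170 ± 43.7 and Smarcd1 at 1090 ± 53.5. Smarcc1 came next at 679 ± 10, then Smarcd3 at 636 ± 22.1, Smarca2 at 344 ± 2.92 and Smarcd2 at 129 ± 2.07. In that order Smarcc2 and Smarce1 overlapped between libraries, as did Smarca4 and Smarcd1, and the other neighbours did not. The libraries labelled control hippocampus gave the same order, with overlap only between Smarce1 and Smarca4. In the knockout, Smarcc1 dropped below Smarcd3 in KO mPFC, at 431 ± 27.8 against 542 ± 63.6 for Smarcd3, and below Smarca2 in KO hippocampus, at 275 ± 10.6 against 292 ± 5.09 for Smarca2. Smarcd2 stayed lowest in all 8 mouse groups.

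The balance within each paralog family, drawn in the plot of paralog shares, is described here without a test. Smarcc1 made up 23.1% ± 0.908 of the summed Smarcc1 and Smarcc2 level per kilobase in KO mPFC and 16.4% ± 0.399 in KO hippocampus, against 31.3% ± 0.287 and 32.9% ± 0.696 in the libraries labelled control mPFC and control hippocampus (SD, n = 3). The sum of both scaffold transcripts was 1870 ± 52.2 per kilobase in KO mPFC and 1670 ± 25.3 in KO hippocampus, against 2160 ± 27 and 2370 ± 64 in the libraries labelled control mPFC and control hippocampus. The scaffold pool in the knockout groups was smaller and held a larger part of Smarcc2. Smarca2 made up 16.5% ± 1.88 of the motor pair in KO mPFC and 18.6% ± 0.579 in KO hippocampus, against 22.7% ± 0.535 and 20% ± 0.594 in the libraries labelled control mPFC and control hippocampus. Every knockout library had a smaller Smarca2 share than every control library (15.3% to 18.6% and 18.3% to 19.3%, against 22.3% to 23.3% and 19.5% to 20.6%). Within the Smarcd family Smarcd1 led in all mouse groups, at 59.8% ± 1.34 in KO mPFC and 61.2% ± 0.419 in KO hippocampus, against 58.8% ± 0.895 and 58.8% ± 1.14 in the libraries labelled control mPFC and control hippocampus. In cultures Smarcd3 held a smaller part of that family. It made up 22.1% ± 0.966 and 23.6% ± 2.15 in GABA-treated and untreated mPFC cultures, and 22.2% ± 1.18 and 21.3% ± 1.41 in GABA-treated and untreated hippocampal cultures. In the acute libraries labelled control mPFC it made up 34.2% ± 0.656. A share within a library does not depend on how the tables were normalised, but the acute and cultured cells were separate experiments, and the difference was not tested.

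**Figure D3:**
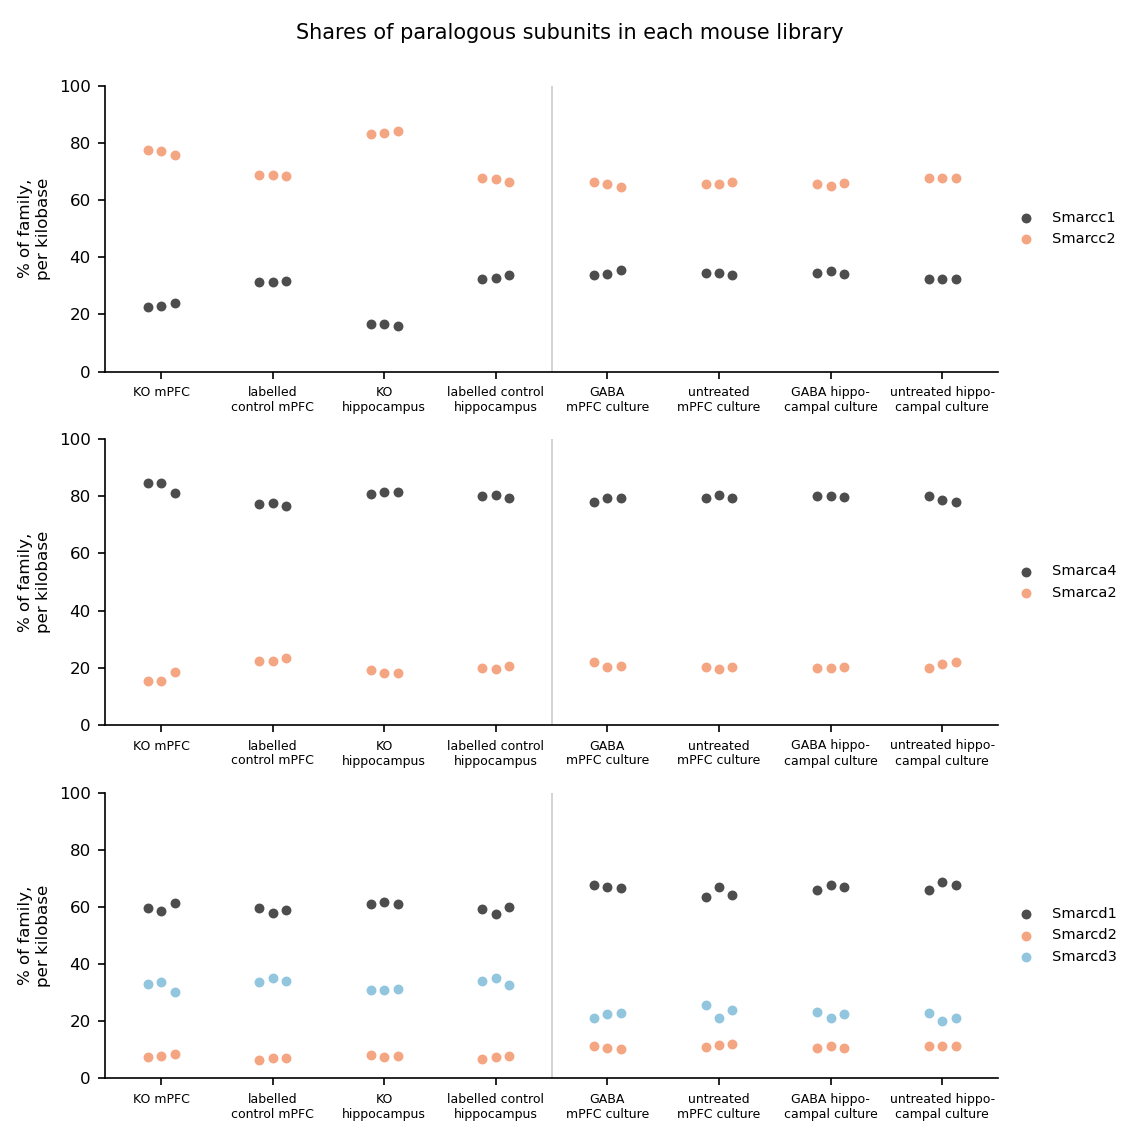
Share of each paralog in its family's summed level per kilobase (vertical axes, percent) in each mouse library, with acute groups left of the grey line and cultures right of it, 3 points per group. The Smarcc1 share lies at 16.4% in KO hippocampus and 23.1% in KO mPFC and between 31.3% and 34.6% in the other 6 groups, while Smarcd3 is lower in cultures than in acute cells.

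The genes most like Smarcc1 over the 12 acute libraries, by Pearson's r among 6992 genes with at least median abundance, were Rnf122 (r = 0.996), Ina (0.988), Acly (0.983), Bpgm (0.980) and S100a16 (0.978). These points share their libraries and the split between genotypes, so r describes the common order and is not tested. Rnf122, a ubiquitin ligase gene, averaged 967 counts in KO mPFC and 761 in KO hippocampus, against 1176 and 1268 in the libraries labelled control mPFC and control hippocampus. Acly, which makes the acetyl-CoA used in lipid synthesis, averaged 8624 and 7725 in KO mPFC and KO hippocampus, against 10303 and 11172 in the libraries labelled control mPFC and control hippocampus. The most opposed were Cldn11 (r = -0.990), App (-0.969), Syt4 (-0.967), Rap2b (-0.965) and Itprid2 (-0.964). Cldn11, a tight-junction gene of myelin, averaged 3784 and 4942 counts in KO mPFC and KO hippocampus, against 2713 and 2479.6 in the libraries labelled control mPFC and control hippocampus, a pattern opposite to that of Smarcc1.

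The other subunits of the BAF, PBAF and ncBAF forms, 22 genes, moved in both directions: 6 were lower, 4 higher and 12 not called in the average of both regions, with a median difference of 0.012. The 10 of 22 called lie below the 54.4% of all tested genes. The 4 with the smallest p were all lower. Bcl7a, a small accessory subunit, averaged 2519 ± 41.8 counts in knockout and 3005 ± 142 in control libraries (SD, n = 6 each; -0.25 ± 0.030, adjusted p = 6.11e-06 in limma). Actl6b, the actin-related subunit of neuronal BAF, averaged 41.0 ± 12.9 in knockout and 76.3 ± 12.5 in control libraries (-0.93 ± 0.124, adjusted p = 1.86e-05). Ss18l1, the neuronal SS18 relative, averaged 489 ± 24.7 in knockout and 583 ± 56.9 in control libraries (-0.25 ± 0.043, adjusted p = 0.000183). Bcl11a, a zinc-finger subunit, averaged 177 ± 31.6 in knockout and 213 ± 22.2 in control libraries (-0.28 ± 0.067, adjusted p = 0.0029). The neuronal markers, of which 5 of 8 were lower, had sums of 1135 to 1285 and 929 to 944 in KO mPFC and KO hippocampus, against 1259 to 1332 and 1364 to 1397 in the libraries labelled control mPFC and control hippocampus. Their part in the Actl6b and Ss18l1 values was not tested. With quantile normalization 6 of the 22 were lower and 1 was higher, and without both libraries that stood apart 7 were lower and 5 higher. Of all tested genes 54.4% and 62.3% were then called in either direction.

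By region label, 3 of these 22 were lower and 6 higher in mPFC, where 23.2% and 24.1% of all tested genes were called lower and higher. Arid1a, the DNA-binding subunit of canonical BAF, averaged 4065 ± 190 counts in KO mPFC and 3419 ± 77.5 in the libraries labelled control mPFC (SD, n = 3 each; 0.25 ± 0.044, adjusted p = 0.000307). Next by p came Bicra (0.38 ± 0.068, adjusted p = 0.000366), Bcl7a (-0.22 ± 0.043, adjusted p = 0.000707) and Bcl11b (0.43 ± 0.120, adjusted p = 0.00869). In hippocampus 7 were lower, on a background of 21.0%, and none was higher, on one of 21.7%. They were led by Actl6b (-1.42 ± 0.175, adjusted p = 1.68e-05), Bcl7a (-0.29 ± 0.043, adjusted p = 9.87e-05), Bcl11a (-0.59 ± 0.095, adjusted p = 0.000197) and Ss18l1 (-0.31 ± 0.060, adjusted p = 0.000841). With exchanged control labels these counts became 4 lower and 0 higher in mPFC, and 4 lower and 6 higher in hippocampus. Of all tested genes 38.8% and 48.1% were then called in either direction. The knockout effect differed between regions in 5 of the 22, which is near the 24.4% of all tested genes called in either direction. All 5 were more negative in hippocampus, as were 12.6% of all tested genes, and the margin between these shares was not tested. They were Bicra (-0.60 ± 0.096, adjusted p = 0.000577), Arid1a (-0.34 ± 0.062, adjusted p = 0.00149), Bcl11a (-0.62 ± 0.134, adjusted p = 0.0042), Actl6b (-0.99 ± 0.248, adjusted p = 0.00998) and Bcl7c (-0.24 ± 0.074, adjusted p = 0.0303). With exchanged labels it differed in 3, all more positive, and in 13.8% of all tested genes. Of the 9 CHD genes, which encode another family of nucleosome remodelers, 3 were higher (Chd4, Chd8 and Chd9) and 1 was lower (Chd7) in the average of both regions, named here after their values were seen. The 4 of 9 lie below the 54.4% of all tested genes.

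In cultured OPCs GABA or glutamate moved the 9 transcripts by small amounts, as the plot of culture differences shows. The largest difference of any member between a treated group and its untreated group was 0.25 ± 0.066 on the log2 scale, for Smarcd3 with GABA in mouse hippocampal cultures. Of the 36 differences 9 were called. Of all tested genes 6.55%, 24.7% and 23.7% were called with GABA in mouse mPFC, mouse hippocampal and rat cultures, and 28.3% with glutamate in rat. The 9 of 36 lie near the 3 higher shares. Smarcc1 was called in none of the 4 comparisons. It averaged 4374 ± 155 counts in GABA-treated and 4516 ± 85.8 in untreated mouse mPFC cultures (95% interval of the log2 difference -0.13 to 0.033; SD, n = 3 each, as in all culture means). It averaged 4446 ± 104 and 4347 ± 91.4 in GABA-treated and untreated hippocampal cultures (-0.035 to 0.10). In rat it averaged 3619.8 ± 35.7 in GABA-treated and 3777 ± 52.6 in untreated cultures (-0.12 to -0.003), and 5103 ± 96.1 in glutamate-treated and 5226 ± 140 in untreated ones (-0.084 to 0.015). Smarcc1 levels are not compared across these tables, which were normalised separately. Its partner Smarcc2 was lower in 3 of the 4 comparisons.

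In mouse mPFC cultures GABA changed none of the 9 by the limma call. Of 14894 tested genes 6.55% were called, 3.18% higher and 3.36% lower. Of the 9 members 2 had an unadjusted p under 0.05, as had 20.5% of all tested genes. In 3 of the 9, Smarcc2, Smarca4 and Smarca2, the groups did not overlap, which was so for 25.8% of all tested genes. Both counts are near these shares. Smarca2 had 2312, 2172 and 2138 counts in the GABA-treated libraries, against 1988, 1951 and 2048 in the untreated ones, with no overlap (0.15 ± 0.043, adjusted p = 0.0535). Smarca4 had 8905, 9194 and 8998 counts in the GABA-treated libraries, against 8385, 8677 and 8641 in the untreated ones, also without overlap (0.076 ± 0.033, adjusted p = 0.199). Smarca2 passed with quantile normalization (0.16, adjusted p = 0.0385). Smarca4 and Smarcd1 passed without GABA-treated replicate 1 (0.086, adjusted p = 0.044 and 0.14, adjusted p = 0.00629), when 12.4% of all tested genes were called. 

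In mouse hippocampal cultures GABA changed 5 of the 9, on a background of 24.7% of 14933 tested genes: 3 core genes were lower (12.8% of all genes) and 2 Smarcd genes higher (11.9%). The 5 of 9 lie above the background, by a margin that was not tested. The groups did not overlap in the same 5 of the 9 and in 39.3% of all tested genes, and the difference between these shares was not tested. Smarcd1 had 3214, 3389 and 3264 counts in GABA-treated libraries, against 2969, 2936 and 2789 in untreated ones (0.18 ± 0.036, adjusted p = 0.000533 in limma). All GABA-treated values were above all untreated values. Smarcd3 had 597, 551 and 570.2 in GABA-treated libraries, against 540.4, 450.2 and 454 in untreated libraries (0.25 ± 0.066, adjusted p = 0.0059), and the lowest treated value lay just above the highest untreated one. Chpf2, which overlaps it, averaged 497 ± 24.1 in GABA-treated and 454 ± 35.8 in untreated libraries (0.13 ± 0.064, adjusted p = 0.142). Smarcc2 had 6001, 5908 and 5899 counts in GABA-treated libraries, against 6587, 6358 and 6322 in untreated ones, with no overlap (-0.11 ± 0.030, adjusted p = 0.0077). Smarcb1 averaged 2227 ± 29.0 and 2386 ± 38.0 in GABA-treated and untreated libraries (-0.099 ± 0.036, adjusted p = 0.0432), and Smarce1 averaged 2089 ± 35.0 and 2260.3 ± 79.8 (-0.11 ± 0.038, adjusted p = 0.029). The 3 lower genes stood at 92.4%, 93.4% and 92.4% of the untreated level. With no filter Smarcb1 (-0.099, adjusted p = 0.0749) and Smarce1 (-0.11, adjusted p = 0.059) were not called. Quantile normalization, under which Smarcd1 and Smarcd3 were called, ended the calls of Smarcc2, Smarcb1 and Smarce1 and added Smarca4. The count fell to 2 without GABA-treated replicate 1 (Smarcc2 and Smarcd1) and to 3 without GABA-treated replicate 2, GABA-treated replicate 3 or untreated replicate 2. In these 4 fits 16.0% to 18.5% of all tested genes were called. Smarcb1 was lost in each of these 4 fits and Smarce1 in 3 of them and without untreated replicate 3, while Smarcc2 and Smarcd1 were called without any 1 library. Of the 22 other subunits 3 were called, below the background share. Bicra was higher (0.30 ± 0.073, adjusted p = 0.00323), and Pbrm1, a PBAF subunit gene, was lower (-0.11 ± 0.034, adjusted p = 0.0203), as was Arid2 (-0.11 ± 0.036, adjusted p = 0.0268). A test of the GABA effect in hippocampal minus mPFC cultures, chosen after the values were seen, called 0 of the 9 in limma (2 at an unadjusted p under 0.05, which 20.1% of all tested genes had). Of all tested genes 4.82% were called, 2.61% higher and 2.21% lower. The response of Smarcd1 (0.10 ± 0.065) or Smarcc2 (-0.051 ± 0.041) is thus not shown to differ between regions. Without untreated hippocampal replicate 1, Smarca2 and Smarcd3 were called (-0.21, adjusted p = 0.0314 and 0.40, adjusted p = 0.0305), as were 7.23% of all tested genes.

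In rat cortical cultures GABA changed 1 of the 9, on a background of 23.7% of 12481 tested genes (11.9% higher and 11.8% lower). Smarcc2 had 5799, 6005 and 5834 counts in GABA-treated libraries, against 6174, 6572 and 6321 in untreated ones, without overlap (-0.11 ± 0.029, adjusted p = 0.00365 in limma), and this call held without any 1 library. The 1 of 9 lies below the background. An unadjusted p under 0.05 was found for 7 of the 9 and for 35.0% of all tested genes. The groups did not overlap in 6 of the 9 and in 37.2% of all tested genes. The differences between these shares were not tested. The other 8 lay between -0.091 ± 0.043 for Smarcd3 and 0.090 ± 0.044 for Smarca2. Smarca4 had 8678, 8539 and 8801 counts in GABA-treated libraries, against 8235, 8409 and 8166 in untreated ones, with no overlap, and its difference missed the threshold (0.068 ± 0.026, adjusted p = 0.0564). It passed with quantile normalization (0.077, adjusted p = 0.0271) and, with Smarca2, without untreated replicate 2 (0.081, adjusted p = 0.0213 and 0.14, adjusted p = 0.0127), and Smarce1 passed without untreated replicate 3 (-0.080, adjusted p = 0.0483). Of 20 other subunits tested 5 were called, near the background share, and 3 were lower, Bicra (-0.15 ± 0.035, adjusted p = 0.00141), Brd9, an ncBAF subunit gene (-0.15 ± 0.045, adjusted p = 0.0164), and Actl6a (-0.13 ± 0.043, adjusted p = 0.025). The 2 that were higher were Arid1b (0.11 ± 0.037, adjusted p = 0.033) and Ss18l1 (0.14 ± 0.051, adjusted p = 0.0401).

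Glutamate in rat cortical cultures lowered 3 of the 9 and raised none, on backgrounds of 14.2% lower, 14.1% higher and 28.3% in either direction of 12465 tested genes. The 3 of 9 are close to the share called in either direction and above the share called lower, by a margin that was not tested. Smarcd1 had 2997, 3157 and 3019.5 counts in glutamate-treated libraries, against 3436, 3401 and 3489 in untreated ones (-0.17 ± 0.028, adjusted p = 5.29e-07 in limma), 88.8% of the untreated level and without overlap. Its call held without any 1 library. Smarcd3 had 626, 596 and 573 in glutamate-treated libraries, against 632, 668 and 669.5 in untreated libraries (-0.13 ± 0.050, adjusted p = 0.0364). Smarcc2 had 5833, 5812 and 5779.7 in glutamate-treated libraries, against 6046, 6055 and 6199 in untreated libraries (-0.071 ± 0.023, adjusted p = 0.0164). Neither gene's groups overlapped. In all, 3 of the 9 had groups without overlap, below the 38.8% of all tested genes. Smarcd1 was the one call without untreated replicate 3 and without glutamate-treated replicate 3, when 24.5% and 23.1% of all tested genes were called. Without untreated replicate 2 or glutamate-treated replicate 2 the call of Smarcd3 was lost, as it was with no filter (-0.13, adjusted p = 0.0585), and without the last of these Smarcb1 was called (-0.090, adjusted p = 0.0493). With quantile normalization Smarcc2 was not called (-0.051, adjusted p = 0.0839) and Smarca4 was called higher (0.079, adjusted p = 0.00261). Of 20 other subunits 6 were lower and none higher, close to the share called in either direction. These 6 exceed the 14.2% of all tested genes called lower, by a margin that was not tested. They were led by Dpf1, which belongs to neuronal BAF (-0.24 ± 0.040, adjusted p = 1.65e-06), and Arid2, the PBAF subunit gene (-0.099 ± 0.029, adjusted p = 0.00492). Sums over myelinating oligodendrocyte markers were 145544 to 147267 in glutamate-treated and 182189 to 184173 in untreated rat libraries, and 196731 to 198421 in GABA-treated and 160827 to 166865 in their untreated libraries. Astrocyte marker sums were 45171 to 45568 in glutamate-treated and 38304 to 38568 in untreated libraries. OPC marker sums were 167752.5 to 169398 in glutamate-treated and 183391.5 to 185013 in untreated libraries. They were 170314 to 171502 in GABA-treated and 173804 to 175510.5 in their untreated libraries. In GABA-treated rat libraries the OPC sums thus lay below the myelinating oligodendrocyte sums. Microglial marker sums were 811 to 832.5 in GABA-treated and 329 to 390 in their untreated libraries. The part of these markers in the differences above was not tested.

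**Figure D4:**
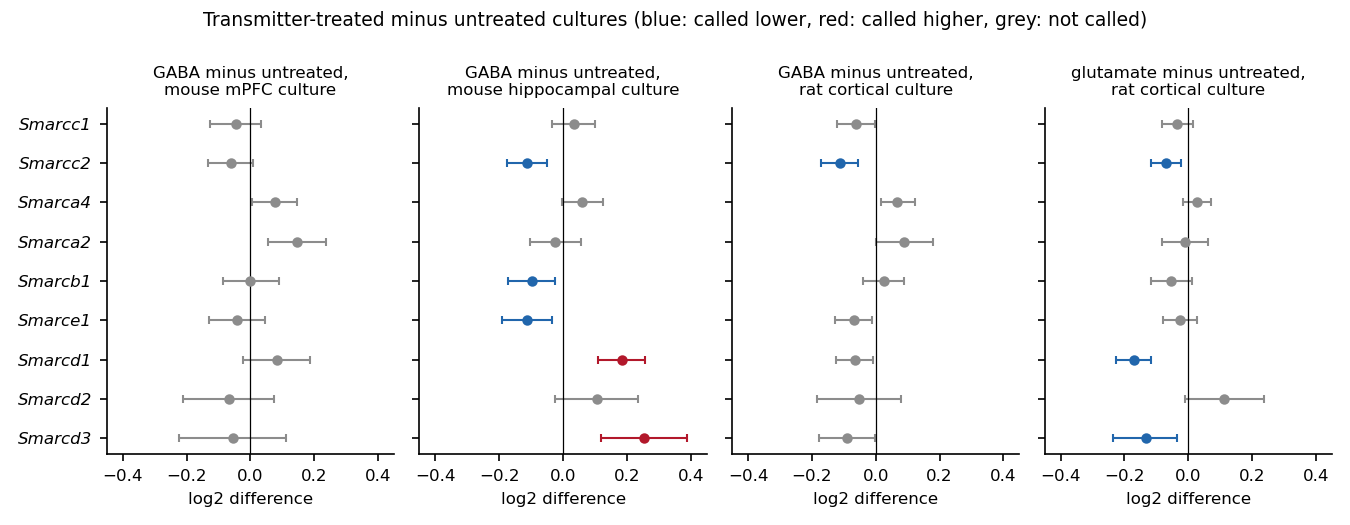
Log2 difference, treated minus untreated, of each transcript (horizontal axes; points with 95% intervals from limma) in the 4 culture comparisons, with called differences in blue (lower) or red (higher) and others in grey. Smarcd1 and Smarcd3 lie right of 0 with GABA in mouse hippocampal cultures, at 0.18 and 0.25, and left of 0 with glutamate in rat cortical cultures, at -0.17 and -0.13.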

How the data were processed

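RNA-seq of polyA RNA had been made from acutely isolated and cultured OPCs and read as 50-base single ends, per the labels' protocols. The deposited values are a signal per gene, reads divided by a size factor of each library, and the values of all 36 libraries were whole multiples of 1 step per library. The submitters' processing notes name HISAT, Bowtie2, DESeq2 and GRCm38.p6 without their roles, and the rat build and the strand setting of the counting are not given in the sources used here. Tables were normalised separately and fitted separately, except that the GABA effects in both mouse cultures were compared in 1 fit, as differences within each table. The hippocampus minus mPFC difference of the untreated mouse cultures, used to check the region labels, was taken across separately normalised tables.

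Genes with a value of at least 10 in at least 3 libraries of a table were tested with limma 3.58.1 (limma-trend, R 4.3.3) on log2(value + 1), with 1 fit per table and no replicate block, and p-values were adjusted by Benjamini-Hochberg over all tested genes. The pseudocount of 1 makes the fold changes of low genes smaller than they are. The script was tested on simulated data. Levels per kilobase used the longest coding transcript of each gene in GENCODE M21. Tables were joined and figures drawn in Python 3.11.15.

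The 9 members and all gene lists were chosen with earlier results of these data known. All 9 members are named in every comparison. Of the other subunits, the up to 4 called genes with the smallest p are named in each knockout comparison and up to 2 in each culture comparison, and the 5 genes most like and most unlike Smarcc1 are named. Genes named beyond that rule, to complete a count of 5 or fewer, were chosen after their values were seen. Alternatives were quantile normalization or median-of-ratios rescaling, no filter, a pseudocount of 0.1 or 10, a replicate block, the groups of a contrast alone, exchanged control region labels and each library left out in turn. Leaving out both libraries that stood apart, and the test of the GABA effect between regions, were chosen after seeing the data.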

Additional observations from a re-analysis of the deposited data

Results flagged for a closer look

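The knockout effect on Smarcc1, the targeted scaffold gene, differed between the regions, by -0.85 ± 0.069 on the log2 scale (hippocampus minus mPFC; adjusted p = 9.5e-07 in limma's test of the difference): KO hippocampus kept 35.2% of the level of its labelled controls and KO mPFC kept 63.5%. The difference was negative under both assignments of the control labels. The effect on Smarca4, a motor gene, differed by -0.40 ± 0.074 (adjusted p = 0.00169): 92.5% of control in hippocampus and 122% in mPFC, and exchanging the control labels turned its sign.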

How the results depend on the processing

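Of 1440 values of single members under an alternative, 1298 kept both their direction and their side of the threshold, 61 lost a call, 38 gained one, 38 not called in either fit moved across 0 and 5 called values changed sign. Those 5 all came from exchanging the control region labels: Smarcd2 in hippocampus at 0.015, Smarca4 in the difference of knockout effects at 0.078, and, by construction, Smarcc1, Smarca4 and Smarcd2 between control regions at -0.20, -0.24 and -0.20. Exchanging the labels gave 5 called members in hippocampus (8 as labelled) and 1 in the difference of knockout effects (2 as labelled), when 48.1% and 13.8% of all tested genes were called. Leaving out both libraries that stood apart gave 6 in that difference, when 50.3% of all tested genes were called. Quantile normalization gave 1 called member for GABA in mPFC (0 in limma on the values as deposited, with 2 at an unadjusted p under 0.05), 3 in hippocampus (5) and 2 in rat (1). Of all tested genes 5.94%, 22.6% and 22.2% were then called. With no filter 3 members were called for GABA in hippocampus, as were 11.2% of all tested genes. No filter ended 5 calls in all, 3 of them outside that comparison, on Smarcb1 in the average, Smarcd2 between control regions and Smarcd3 with glutamate. The fit on the groups of a contrast alone ended 3 calls, on Smarcd1 in mPFC, Smarcd2 in hippocampus and Smarcd2 between control regions. The cause was not tested. With 1 library left out at a time, the number of called members ran from 3 to 5 in mPFC, 6 to 8 in hippocampus, 6 to 7 in their average, 2 to 4 in their difference, 2 to 4 between control regions and 1 to 4 between knockout regions. The share of all tested genes called ran from 40.2% to 49.8% in mPFC, 33.1% to 46.7% in hippocampus and 49.8% to 56.3% in their average. This share was 17.4% to 37.9% in their difference, 15.1% to 26.9% between control regions and 7.49% to 35.3% between knockout regions. In cultures the number of called members ran from 0 to 2 for GABA in mPFC, 2 to 5 in hippocampus, 0 to 2 in the difference of these, 1 to 3 in rat and 1 to 3 for glutamate. The share of all tested genes called there was 2.83% to 12.4%, 16.0% to 29.1%, 1.75% to 8.28%, 16.9% to 25.1% and 23.1% to 26.4%, in the same order. Smarcc1 ran from -0.71 to -0.63 in mPFC, -1.54 to -1.48 in hippocampus and -1.11 to -1.07 in their average. Median-of-ratios rescaling changed no call, and a pseudocount of 0.1 or 10 changed 1 each.

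In none of the comparisons did all same-numbered pairs of the groups compared correlate above 0.1 in their deviations (-0.046 to 0.118), so these numbers are not taken to pair the samples. Across groups that no comparison as labelled sets against each other the correlations ran from -0.269 to 0.249, with the highest between KO mPFC replicate 3 and control hippocampus replicate 3, the libraries that stood apart. With the replicate as a block, 2 members were called between knockout regions (1 without it), 8 in the average and 6 in mPFC. Of all tested genes 20.2%, 57.0% and 50.5% were then called in these comparisons (15.1%, 54.4% and 47.4% without it). Smarcc1 stayed at -1.08 in the average. In the other comparisons the number of called members was as without the block, though between control regions Smarcd1 took the place of Smarcd2. Each control hippocampus library correlated best with the control mPFC library of its own number (0.053, 0.039 and 0.050), but in the other comparisons not every library did so. With the block the share of all tested genes called rose in every comparison except the GABA effect between regions, where it fell from 4.82% to 3.18%. Between control regions it rose from 23.7% to 27.2%. What the replicate numbers stand for was not tested. Fits with edgeR and DESeq2 were not run, since the deposited values are normalised, and for the average and the difference of both regions the fit on the groups of the contrast is the same as the one reported. Groups of 3 and 1 value per gene limit what can be seen: small differences of abundant genes pass or miss the threshold with single libraries.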
